A study of Mus musculus with 147 samples.

Results

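The Tet dioxygenases and the DNA glycosylase that acts after them were followed through the whole male mouse germline. The 4 members were Tet1, Tet2, Tet3 and Tdg, taken by gene symbol from the 31053 genes of the single-cell count table, and each was read in every time-point, replicate and sort gate. Single cells had been sequenced at their 3′ ends from embryos, gonads and testes between embryonic day (E) 6.5 and adulthood, the postnatal days being written PND. The wild-type cells came from offspring of C57BL/6 females and males carrying the BVSC reporter, a pair of transgenes in which mVenus follows Prdm1 and ECFP follows Dppa3, so that germ cells fluoresce. A second genotype, Helq null, carried a CRISPR deletion of 8 bases in the first exon of Helq, a DNA helicase gene, and was collected at 6 time-points from E11.5 to E18.5. The null line was derived from edited BVSC embryonic stem cells, by way of chimeric mice that were crossed among themselves. The study does not state that null and wild-type animals were littermates. At E6.5 and E7.5 cells came from embryos under the gate names EPIrandom and FACSrandom, neither of them a reporter gate, reporter-positive cells of E8.5 to E10.5 were sorted from whole embryos, and cells of E11.5 to E18.5 were sorted from gonads into a positive gate (both fluorophores, BVSC) and a Negative gate. From E14.5 the study also took cells with the Dppa3 reporter alone as positive, since the Prdm1 signal faded, and at E11.5 replicate 1 a gate named BV (mVenus) was counted as positive here too. After birth cells that looked like germ cells were picked by chance from testis suspensions, or cells were sorted on DNA content (1N, 2N or 4N). For E10.5 and E11.5 the study states that males were selected by PCR of Sry, and sexing of earlier embryos is not given in the sources used here. In the deposited cell names part of the E10.5 cells are marked Male and the rest None, and both were used.

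The unit of comparison was the pool, that is the summed unique molecular identifiers (UMIs, 1 per captured transcript molecule) of the cells of 1 time-point, replicate and cell class, at PND14 and PND30 also of 1 DNA-content gate, given as CPM, the count over the pool's UMIs scaled to 1000000. The 2 positive gates of E11.5 replicate 1 were summed into 1 pool, and so were the 2 gates of E7.5 replicates 1 and 2. Of 11896 wild-type cells, 11598 passed the filter on genes and UMIs, and cells from E8.5 onwards were split by 8 germ marker genes and 19 genes of other cells, none of them a member, into 8476 germ-marker cells and 1495 other cells. The split left 356 cells within 2-fold of the cut. The 1626 cells of E6.5-E7.5 were left unsplit, so the first stage below holds all embryo cells and not germ cells alone. The 66 wild-type germ-marker pools, these early pools included, held 25 to 476 cells and 11391996 to 187788707 UMIs (median 39289112). Germ marker genes summed to 1128 to 4343 CPM in the 59 germ-marker pools from E8.5 on and to 70.9 to 387 CPM in the other cells of the Negative gate. Genes of other cells summed to 13 to 1169 CPM (median 374) in the same 59 pools. In the other cells of the Negative gate they summed to 1404 to 3989 CPM. Pools do not tell fewer expressing cells from less RNA per cell, except where cells are counted below, and intervals on single pools cover counting error only. The replicates are independent biological replicates according to the study's methods, with no animal given per cell. Its sample list gives a single gonad or testis for each replicate after birth, shared by the DNA-content gates of that replicate.

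Tet proteins oxidise 5-methylcytosine in DNA, and thymine DNA glycosylase, the product of Tdg, excises the more oxidised forms so that base excision repair can put back an unmodified cytosine. Mouse primordial germ cells lose nearly all DNA methylation as they reach and settle in the gonad, partly by dilution at replication and partly with Tet1 and Tet2 activity, and male germ cells lay methylation down again before birth while they are arrested. Tet1 is known for its part in demethylating germline and imprinted genes, Tet3 for oxidation of the paternal genome after fertilisation, and Tdg for being required in embryonic development.

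In mm10 all members are protein-coding genes. Tet1 lies at chr10:62804570-62908996 on the minus strand, Tet2 at chr3:133463679-133545139 on the minus strand, Tet3 at chr6:83362373-83459084 on the minus strand and Tdg at chr10:82629828-82650799 on the plus strand. The stretches before the RefSeq starts of the 3 Tet genes (build GRCm38.p6) are shown because the members act on CG sites. The Tet2 window held far more of these sites than those of the other members, which were close to each other. CG is in capitals, 5′ to 3′ on each gene's own strand.
Tet1: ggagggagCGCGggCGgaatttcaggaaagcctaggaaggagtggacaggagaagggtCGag
Tet2: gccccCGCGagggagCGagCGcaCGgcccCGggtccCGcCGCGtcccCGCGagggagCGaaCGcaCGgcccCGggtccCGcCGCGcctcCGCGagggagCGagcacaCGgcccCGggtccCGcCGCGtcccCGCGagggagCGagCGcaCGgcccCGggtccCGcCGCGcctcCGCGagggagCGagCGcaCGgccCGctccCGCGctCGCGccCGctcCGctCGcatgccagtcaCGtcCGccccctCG
Tet3: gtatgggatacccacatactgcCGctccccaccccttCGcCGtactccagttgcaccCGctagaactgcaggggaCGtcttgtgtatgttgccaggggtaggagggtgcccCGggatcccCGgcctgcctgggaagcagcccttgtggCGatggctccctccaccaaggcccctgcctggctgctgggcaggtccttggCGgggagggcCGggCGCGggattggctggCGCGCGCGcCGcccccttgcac
The Tet2 stretch (chr3:133544391-133544640) held 51 CG in 250 bases, a number reached by 0.067% of the 32851 RefSeq promoters cut to the same length, whose median was 6. The Tet3 stretch (chr6:83441679-83441928) held 17 CG, reached by 23.5% of promoters, and the RefSeq start lies 17406 bases inside the longest annotated gene. For Tet1 only the 62 bases before an alternative first exon are shown (chr10:62887513-62887574, 4 CG), and its full window of 250 bases held 15 CG, reached by 27.3% of promoters. Tdg held 19 CG in its window, reached by 19.7%. Counts at 3′ ends do not tell which of the annotated starts a molecule came from, so the values below are sums over all isoforms of a gene. CG was counted on 1 strand, and because it reads the same on both, the number is the same for the other.

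**Figure D1:**
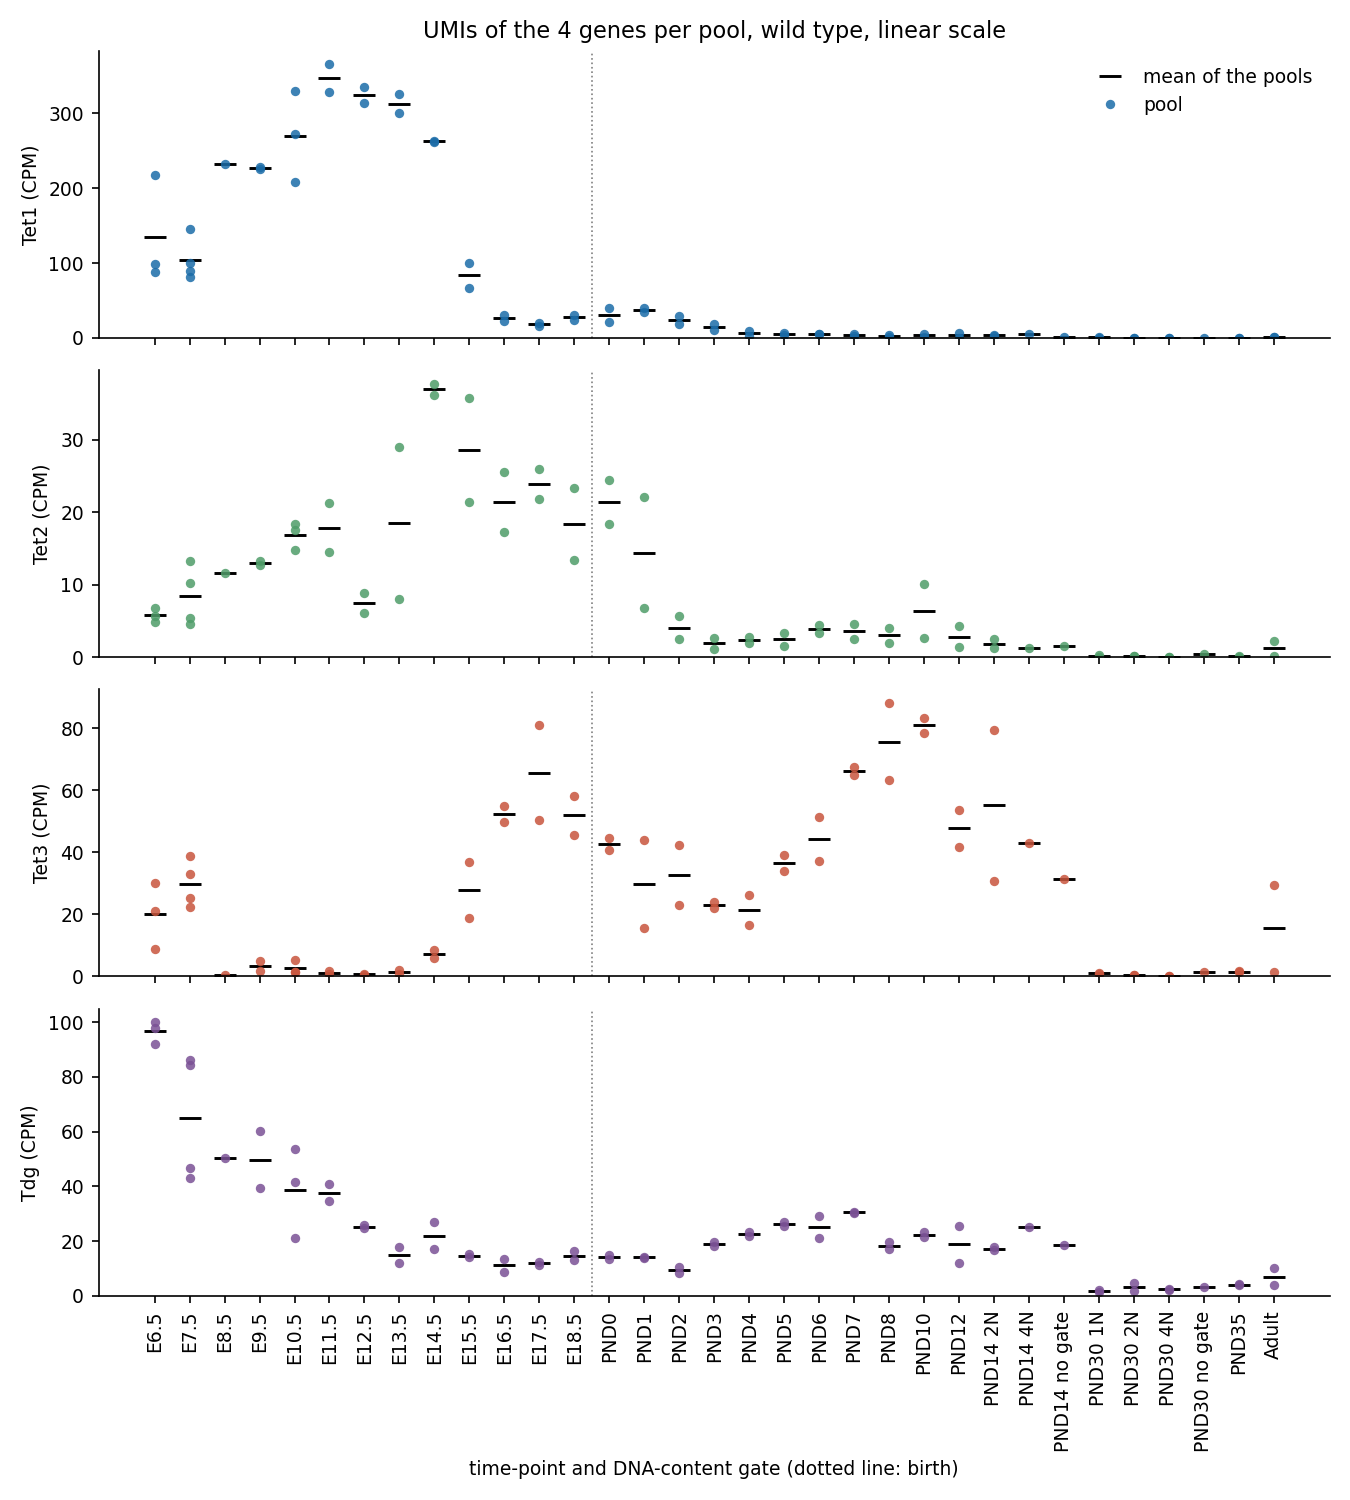
CPM of Tet1, Tet2, Tet3 and Tdg (vertical axes, 1 panel per gene) in each wild-type germ-marker pool at each time-point or DNA-content gate (horizontal axis), with a point per pool and a bar at the mean of each group; E6.5 and E7.5 are all embryo cells. Tet1 was highest at E11.5 to E13.5 (300 to 365 CPM) and Tet3 lowest there (0.435 to 1.98 CPM).

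Tet1 had the highest mean of the 4 members in each stage up to E14.5-E16.5, on the scale of 3′ UMIs that count a molecule once whatever its length, and then fell away. Its level was 116.95 ± 49.3 CPM (SD, n = 7 pools) at E6.5-E7.5, 249.4 ± 44.6 CPM (n = 6) in germ-marker cells of E8.5-E10.5 and 328 ± 22.1 CPM (n = 6) at E11.5-E13.5. The lowest, median and highest pool of that peak stood at 300, 327 and 365 CPM, a narrow spread around a high level. It then fell to 123.95 ± 110.8 CPM at E14.5-E16.5 and 25.2 ± 8.58 CPM at E17.5-PND0 (n = 6 pools each). After birth it was 20.3 ± 13.1 CPM at PND1-PND4 (n = 8), 4.08 ± 1.57 CPM at PND5-PND8 (n = 8) and 2.89 ± 2.11 CPM at PND10-PND14 (n = 7). Of these 7 pools, 2 come from the same replicate of PND14. With them summed the level was 3.0 ± 2.23 CPM of Tet1, 61.3 ± 22.1 CPM of Tet3 and 19.7 ± 4.77 CPM of Tdg (n = 6). Of the 8 stages ordered by mean level, the only neighbours whose pools did not overlap were E6.5-E7.5 (at least 81 CPM) and E17.5-PND0 (at most 39.5 CPM). In order of time, the pools of E11.5-E13.5 all lay above those of E14.5-E16.5 (lowest 300 against highest 263 CPM), and the other successive stages overlapped.

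Tested across all genes with edgeR, the mean of Tet1 over a stage was lower than in the stage before at 3 of the 7 steps. The log2 fold change was −2.17 ± 0.40 (SE; adjusted p = 3.90e-05) for E14.5-E16.5 against E11.5-E13.5, −2.04 ± 0.40 (adjusted p = 0.000251) for the next step and −1.83 ± 0.34 (adjusted p = 0.000416) for PND5-PND8 against PND1-PND4. The median over all genes tested moved by 0.63, 0.62 and −0.10 at these steps, so the first pair of falls ran against the general shift. Its higher value at E8.5-E10.5 than at E6.5-E7.5 did not pass (0.73 ± 0.38, adjusted p = 0.143), although it did without the single germ-marker pool of E8.5 (1.06, adjusted p = 0.0434).

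Tet2 stayed low throughout and was highest just as Tet1 fell. Its pools measured 7.26 ± 3.30 CPM (SD, n = 7) at E6.5-E7.5, 14.7 ± 2.73 CPM at E8.5-E10.5 and 14.6 ± 8.99 CPM at E11.5-E13.5 (n = 6 each), with a range of 6.06 to 29.1 CPM in the last. At E14.5-E16.5 it stood at 29 ± 8.74 CPM and at E17.5-PND0 at 21.3 ± 4.61 CPM (n = 6 each). The rise into E14.5-E16.5 was not called (0.88 ± 0.48, adjusted p = 0.171). Around birth the level dropped, to 5.69 ± 6.88 CPM at PND1-PND4 (n = 8), and this fall was called (−2.09 ± 0.45, adjusted p = 0.000498; median of all genes −0.28). The large SD came from PND1, where the pools held 6.78 and 22.1 CPM, while the 6 pools of PND2 to PND4 held at most 5.63 CPM. From PND5 to PND14 Tet2 stayed at 1.22 to 10.2 CPM, with no call at either step.

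Tet3 followed the opposite course to Tet1 before birth. All embryo cells of E6.5-E7.5 held 25.6 ± 9.62 CPM (SD, n = 7), germ-marker cells of E8.5-E10.5 held 2.57 ± 2.03 CPM (n = 6), and those of E11.5-E13.5 held 1.09 ± 0.60 CPM (n = 6), with 0.435, 0.856 and 1.98 CPM as the lowest, median and highest pool. The pool of E11.5 replicate 1 (1.68 CPM) joined 31 cells of the BV gate at 3.76 CPM and 79 of the BVSC gate at 0.364 CPM. Without the BV gate the stage stood at 0.869 ± 0.585 CPM (n = 6). The level then stood at 29.1 ± 21.1 CPM at E14.5-E16.5 and 53.4 ± 14.8 CPM at E17.5-PND0 (n = 6 each). A dip to 26.8 ± 10.8 CPM at PND1-PND4 (n = 8) preceded 55.7 ± 18.7 CPM at PND5-PND8 (n = 8) and 57 ± 23.3 CPM at PND10-PND14 (n = 7). The pools of the first stage all lay above those of the second (lowest 8.88 against highest 5.14 CPM), and those of E11.5-E13.5 all lay below those of E14.5-E16.5 (highest 1.98 against lowest 5.99 CPM).

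The Tet3 test gave −4.20 ± 0.58 (adjusted p = 1.32e-06) for E8.5-E10.5 against E6.5-E7.5, where the median gene moved by −0.79 and the value was −3.04 (adjusted p = 4.94e-06) without the E8.5 pool, and 4.17 ± 0.48 (adjusted p = 1.58e-08) for E14.5-E16.5 against E11.5-E13.5. The former sets germ-marker cells against unsplit embryo cells, so stage and cell class cannot be told apart in it. Tet3 also rose at PND5-PND8 (1.24 ± 0.37, adjusted p = 0.0201), a call that ended when all cells of the gate were summed (adjusted p = 0.0898) or library size alone was used for scaling (adjusted p = 0.0534). Its values at E17.5-PND0 (1.00 ± 0.42, adjusted p = 0.0645) and PND1-PND4 (−0.74 ± 0.39, adjusted p = 0.137) did not pass. The step from E8.5-E10.5 to E11.5-E13.5 was not called (−0.69 ± 0.47, adjusted p = 0.546) but was without the E8.5 pool (−1.55, adjusted p = 0.0215), which with 17 Tet3 UMIs held the lowest value of its stage (0.518 CPM, exact Poisson 95% interval 0.302 to 0.829).

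Tdg declined from the earliest cells to birth and recovered partly afterwards. It measured 78.5 ± 23.8 CPM (SD, n = 7) at E6.5-E7.5, 44.3 ± 13.7 CPM at E8.5-E10.5, 25.9 ± 10.6 CPM at E11.5-E13.5, 15.9 ± 6.00 CPM at E14.5-E16.5 and 13.6 ± 1.80 CPM at E17.5-PND0 (n = 6 each). After birth the means were 16.2 ± 5.38 CPM at PND1-PND4 (n = 8), 25 ± 5.16 CPM at PND5-PND8 (n = 8) and 19.4 ± 4.48 CPM at PND10-PND14 (n = 7). The pools of successive stages overlapped at every step. By stage mean, Tdg was called lower at E8.5-E10.5 (−1.15 ± 0.32, adjusted p = 0.00583) and at E14.5-E16.5 (−0.85 ± 0.30, adjusted p = 0.0252), and higher at PND5-PND8 (0.89 ± 0.26, adjusted p = 0.0191). The second of these calls was lost without E11.5 replicate 1, E14.5 replicate 2, E15.5 replicate 1 or E16.5 replicate 1 (adjusted p = 0.0554 to 0.0890), and the third with all cells of the gate (adjusted p = 0.0537). Both also reflect changes within the earlier stage. By day Tdg averaged 37.7, 25.1 and 14.9 CPM at E11.5, E12.5 and E13.5, and 21.9, 14.7 and 11.1 CPM at E14.5, E15.5 and E16.5. After birth it averaged 9.38 CPM at PND2, 18.8 CPM at PND3, 22.5 CPM at PND4 and 26.1 CPM at PND5. The step into E11.5-E13.5 just missed (−0.94 ± 0.31, adjusted p = 0.0542) and passed without any of 4 pools, named with the other settings in the closing section.

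Counted by step, 0 to 3 of the 4 members were called. At E8.5-E10.5 against E6.5-E7.5, 2 of 4 were called, both lower, where 31.2% of the 27805 genes tested were called. At E11.5-E13.5 none was called by edgeR in its default form, against 8.24% of all genes, 1 member had an unadjusted p under 0.05, and DESeq2, limma and the bias-adjusted form of edgeR's test each called 1, Tdg. At E14.5-E16.5, 3 of 4 were called, 2 of them lower, against 33.9% of all genes called in either direction and 11.6% called lower. At E17.5-PND0, 1 was called (32.7% of all genes), and at PND1-PND4 again 1 (35.9%). At PND5-PND8, 3 were called against 13.6% of all genes, and at PND10-PND14 none against 12.4%, with 1 member at an unadjusted p under 0.05 and 1 called by limma on mean single-cell CPM. With 4 members these shares describe the genes and are not a test of the group. Leaving out every pool numbered 1, or every pool numbered 2, ended the Tdg calls at E8.5-E10.5 and E14.5-E16.5 and the 3 calls at PND5-PND8 either way, and that of Tet2 at PND1-PND4 without replicate 1 (adjusted p = 0.11).

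The exchange of Tet1 for Tet3 took place between E13.5 and E16.5, the days on which male germ cells leave the cell cycle. Tet1 measured 325 and 300 CPM in the replicates of E13.5, 263 and 262 CPM at E14.5, 66.4 and 100 CPM at E15.5, and 21.9 and 30.1 CPM at E16.5. Tet3 measured 1.98 and 0.773 CPM at E13.5, 5.99 and 8.38 CPM at E14.5, 36.8 and 18.7 CPM at E15.5, and 49.7 and 55 CPM at E16.5. On each day both pools lay below those of the day before for Tet1 and above them for Tet3, and at E15.5 replicate 1 had the lower Tet1 and the higher Tet3 of the pair. Tet2 held 29.1 and 8.05 CPM at E13.5, 37.8 and 36.2 CPM at E14.5, 21.4 and 35.9 CPM at E15.5, and 17.3 and 25.6 CPM at E16.5, the pools of E14.5 being the highest of these days. By edgeR no member was called on any single day's step, where 0.169%, 0.45% and 0.435% of genes were, with 1, 2 and 1 members at an unadjusted p under 0.05. The smallest adjusted p for Tet1 was 0.213 (E15.5 against E14.5, −1.75 ± 0.68) and for Tet3 0.245 (1.81 ± 0.75, same step).

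**Figure D2:**
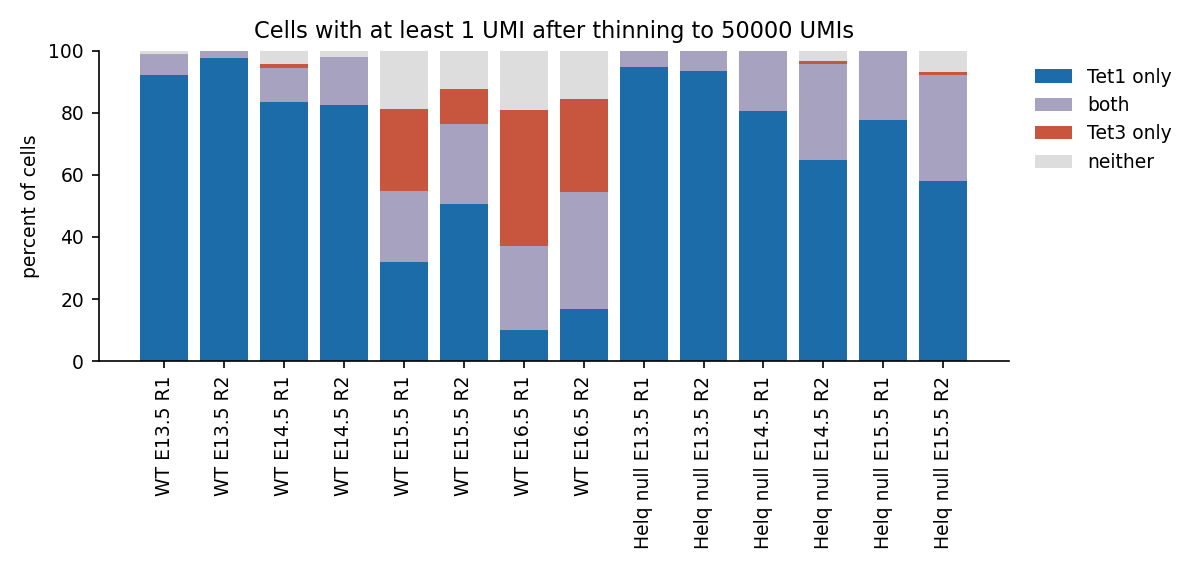
Share of cells (percent, stacked bars, 1 bar per pool) with a UMI of Tet1 only, of both Tet1 and Tet3, of Tet3 only or of neither, after each cell was thinned to 50000 UMIs, for wild-type pools of E13.5 to E16.5 and Helq null pools of E13.5 to E15.5. Tet1-only cells fell from 92.1 and 97.6% at E13.5 to 10.1 and 16.7% at E16.5 in the wild type, and stood at 77.7 and 58% in the Helq null pools of E15.5.

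The same exchange was counted cell by cell after thinning every cell to 50000 UMIs, which kept 84 to 92 of the 91 to 96 cells of a pool (median depth before thinning 227574 to 333211 UMIs per cell). Cells with Tet1 and no Tet3 made up 92.1 and 97.6% at E13.5, 83.5 and 82.6% at E14.5, 31.9 and 50.6% at E15.5, and 10.1 and 16.7% at E16.5. The Wilson 95% intervals were 23.2 to 42% and 40.4 to 60.7% for the pools of E15.5 and 5.41 to 18.1% and 10.4 to 25.7% for those of E16.5. Cells with Tet3 and no Tet1 made up 0% in both pools of E13.5 (0 of 89 and 0 of 84 cells, which allow up to 3.37 and 3.57% at 3 counts of the total, with Wilson upper bounds of 4.14 and 4.37%), 1.10% and 0% (0 of 92 cells, up to 3.26%, Wilson upper bound 4.01%) at E14.5, 26.4 and 11.2% at E15.5, and 43.8 and 30% at E16.5. Cells with UMIs of both were present on every day, at 6.74 and 2.38% at E13.5 and 27 and 37.8% at E16.5. Within the 2 pools of E15.5 the quartiles of Tet1 were 3.33, 26.8 and 85.2 CPM and 17.9, 65.8 and 161 CPM, against 118.99, 312 and 378 CPM and 177, 260 and 351 CPM at E14.5, so cells of 1 day differed widely. Without thinning, cells with a Tet3 UMI made up 20.9 and 2.17% at E13.5 and 88.3 and 87.5% at E16.5, and cells with a Tet1 UMI 53.2 and 70.8% at E16.5.

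**Figure D3:**
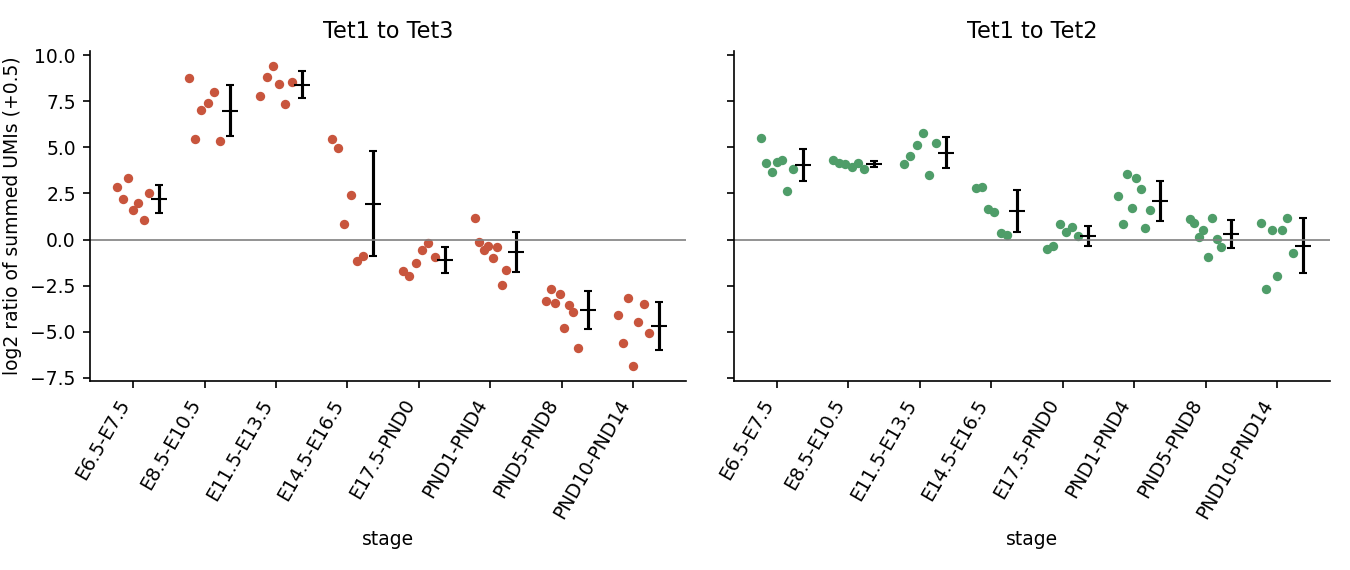
Log2 ratio of Tet1 to Tet3 and of Tet1 to Tet2 UMIs (vertical axis, 0.5 added to each sum) in each wild-type pool of the 8 stages (horizontal axis), with a point per pool and mean ± SD. The Tet1 to Tet3 ratio stood at 8.39 ± 0.74 at E11.5-E13.5 and at −3.82 ± 1.05 at PND5-PND8.

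Ratios within a pool do not depend on how pools are scaled to each other. The log2 ratio of Tet1 to Tet3 UMIs was 8.39 ± 0.74 (SD, n = 6) at E11.5-E13.5, from 7.35 to 9.42, and 1.94 ± 2.85 (n = 6) at E14.5-E16.5, from −1.18 to 5.45. The difference was −6.45 (two-sided exact permutation test, p = 0.00216, the smallest that 924 assignments allow). From the 12 pools of E8.5-E13.5 to the 8 of PND5-PND8 it went from 7.69 ± 1.28 to −3.82 ± 1.05, a difference of −11.5 (exact p = 7.94e-06, the smallest of 125970 assignments, adjusted over 4 ratio tests 1.59e-05). The ratio of Tet1 to Tet2 went from 4.71 ± 0.84 to 1.56 ± 1.14 over the former comparison (exact permutation p = 0.00216) and from 4.40 ± 0.66 to 0.31 ± 0.75 over the latter (exact permutation p = 7.94e-06). All 4 comparisons had groups that did not overlap. As 3′ UMIs may be captured with unequal efficiency from each gene, the ratios are compared between stages and are not molar.

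**Figure D4:**
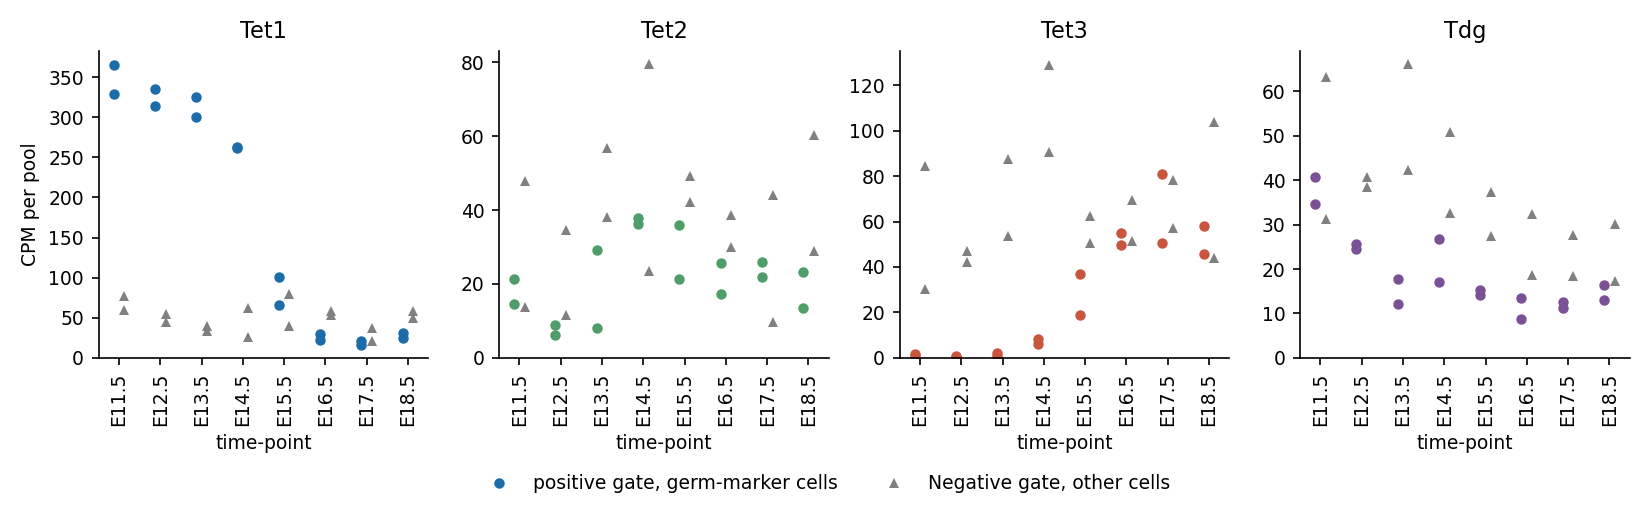
CPM of the 4 members (vertical axes) at E11.5 to E18.5 (horizontal axis) in germ-marker pools of the positive gate and in pools of other cells of the Negative gate, a point per pool. Tet1 lay above the Negative gate until E14.5 and below it at E16.5, and Tet3 lay far below it until E14.5.

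Other cells of the same gonads did not show this course. In 16 pools of other cells from the Negative gate at E11.5 to E18.5 (22 to 48 cells and 2457656 to 14846785 UMIs each), Tet1 ranged from 20.8 to 79.1 CPM (median 51.6), Tet2 from 9.75 to 79.5 CPM (median 38.4), Tet3 from 30.3 to 128.8 CPM (median 59.98) and Tdg from 17.4 to 66.3 CPM (median 32.4). At E13.5 Tet1 measured 39.3 and 33.9 CPM there against 325 and 300 CPM in germ-marker cells, and Tet3 53.6 and 87.6 CPM against 1.98 and 0.773 CPM. At E16.5 Tet1 measured 58.9 and 53.7 CPM against 21.9 and 30.1 CPM, and Tet3 69.4 and 51.5 CPM against 49.7 and 55 CPM. Germ-marker cells thus went from the higher to the lower Tet1 level of the gonad within 3 days and their Tet3 came to overlap that of the other cells.

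In the paired comparison of gates over all 32 pools, Tet2 (−1.02 ± 0.26, adjusted p = 0.00220), Tet3 (−2.99 ± 0.61, adjusted p = 0.000346) and Tdg (−1.16 ± 0.21, adjusted p = 9.38e-05) were lower in germ-marker cells and Tet1 was not called (0.92 ± 0.54, adjusted p = 0.142), where 59.8% of the 23151 genes tested were called and the median gene stood at 0.72. The Tet2 call was lost without replicate 1. Split by period, a choice made after the values were seen, Tet1 was higher in germ-marker cells at E11.5-E14.5 (2.77 ± 0.26, adjusted p = 2.16e-08) and lower at E15.5-E18.5 (−1.07 ± 0.26, adjusted p = 0.00156). Tet3 was lower in both periods, by −5.23 ± 0.33 (adjusted p = 7.78e-11) and −0.92 ± 0.28 (adjusted p = 0.00784). In each period all 4 members were called, against 42.2% and 60.4% of all genes. The change of the gate difference between periods passed for Tet1 (−3.83 ± 0.37, adjusted p = 4.32e-07) and Tet3 (4.31 ± 0.41, adjusted p = 4.53e-07), beside 23.4% of all genes, and did not for Tet2 (−0.19 ± 0.50) or Tdg (−0.57 ± 0.39). In E17.5 replicate 1 the positive gate also held 25 other cells beside 47 germ-marker cells. Genes of other cells summed to 1053 and 881 CPM in the germ-marker pools of that day. Among the 59 germ-marker pools from E8.5 on their median was 374 CPM, and the highest was E18.5 replicate 2 (1169 CPM). The part of such RNA in the member levels was not tested.

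Averaged over PND0 to PND14, every Tet was lower in germ-marker cells than in the other cells of the same testes. Those had been picked from the same suspensions by their look and so are no random sample of the testis. Across 18 pools of other cells from PND0 to PND14 (10 to 85 cells each), Tet1 ranged from 3.27 to 51 CPM (median 23.5), Tet2 from 14.4 to 65.2 CPM (median 25.4), Tet3 from 24.4 to 132.2 CPM (median 73.9) and Tdg from 1.44 to 52.4 CPM (median 20.05). Paired by pool, germ-marker cells were lower in Tet2 (−3.22 ± 0.35, adjusted p = 2.00e-08), Tet1 (−2.23 ± 0.33, adjusted p = 2.63e-06) and Tet3 (−1.01 ± 0.14, adjusted p = 1.09e-06), and Tdg was not called (−0.37 ± 0.22, adjusted p = 0.155). These 3 calls stood beside 62.9% of the 22146 genes tested and a median of 0.52. The comparison was not split by day. Tet1 in germ-marker pools was 39.5 and 21.1 CPM at PND0, on either side of the median of the other cells. At PND10 it was 4.96 and 1.6 CPM. At E8.5 the positive gate of replicates 1 and 3 held no germ-marker cell, and their 48 other cells each measured 110 and 136.8 CPM of Tet1 and 36.9 and 35 CPM of Tet3, against 232 and 0.518 CPM in the germ-marker cells of replicate 2. Those values lay within the range of the pools of E6.5-E7.5.

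In cells sorted at PND30 the 3 Tet transcripts had nearly disappeared. In the 4N gate, which holds spermatocytes among other cells with doubled DNA, Tet1 measured 0.0769 and 0.207 CPM, Tet2 0.0513 and 0 CPM, Tet3 0.244 and 0.104 CPM, and Tdg 2.55 and 2.28 CPM. These levels rest on few molecules, 19 and 3 UMIs for Tet3 and 6 in each pool for Tet1, and the pool without Tet2 UMIs allows up to 0.104 CPM. Against PND5-PND8 all 4 members fell, with log2 fold changes of −7.70 ± 0.96 for Tet3, −6.04 ± 1.06 for Tet2, −4.48 ± 0.79 for Tet1 and −2.88 ± 0.51 for Tdg (edgeR, adjusted p = 1.63e-08 to 7.60e-06), where 60.2% of genes were called and the median gene moved by 0. In the 1N gate, which holds haploid spermatids, Tet3 measured 0.914 and 1.19 CPM (48 and 20 UMIs) and was called higher than in 4N (2.66 ± 0.84, adjusted p = 0.0314; 11.6% of genes called). This call ended under the bias-adjusted quasi-likelihood (adjusted p = 0.658) and with mean single-cell CPM (adjusted p = 0.319). The 1N and 4N pools of a replicate came from a single gonad or testis by the study's sample list, and the fit treated them as unpaired. Tet1 in 1N was 1.09 and 0.0595 CPM and Tet2 0.248 and 0 CPM, the latter pool allowing up to 0.178 CPM.

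The 4N cells of PND14 did not show the low levels of PND30. Their 1 germ-marker pool held 42.9 CPM of Tet3 (exact Poisson 95% interval 41.2 to 44.6) and 25.3 CPM of Tdg (24 to 26.6), beside 79.5 and 30.7 CPM of Tet3 in the 2N pools of that day. At PND35 Tet3 measured 1.63 and 1.3 CPM and Tdg 4.43 and 3.75 CPM. The adult pools differed from each other, with Tet3 at 29.6 and 1.51 CPM, Tdg at 10.1 and 3.94 CPM and Tet2 at 2.23 and 0.176 CPM in replicates 1 and 2. Genes of other cells summed to 488 and 31.1 CPM in the same adult pools, and their part in the difference was not tested.

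The Helq null cells were compared with the wild type at E11.5 to E18.5. Helq itself ranged from 15.9 to 40.3 CPM (median 23.5) in the 9 null pools and from 15.8 to 27.8 CPM (median 22.7) in the 12 wild-type pools of the same days. Since the deletion removes 8 bases of the first exon and the counts come from 3′ ends, this level checks nothing about the genotype.

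**Figure D5:**
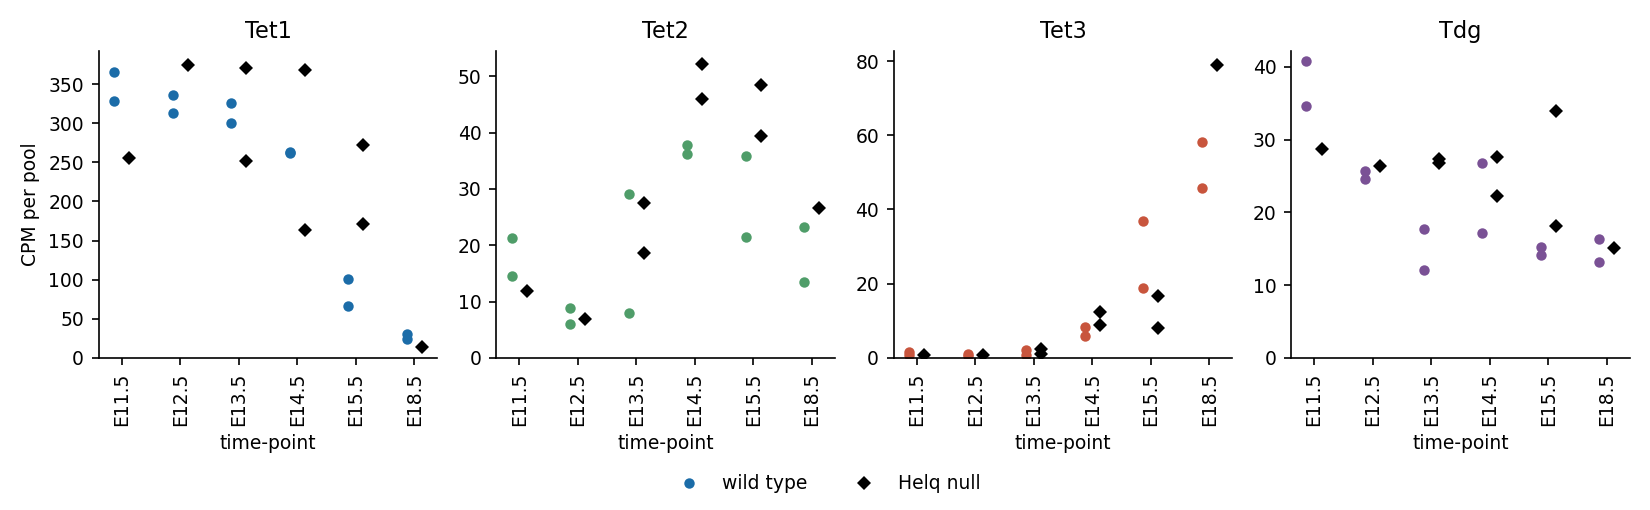
CPM of the 4 members (vertical axes) in germ-marker pools at the time-points with both genotypes (horizontal axis), circles for wild type and diamonds for Helq null, 1 symbol per pool. At E15.5 Tet1 stood at 273 and 172 CPM in Helq null and 66.4 and 100 CPM in wild-type pools.

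Over all 6 time-points no member differed between genotypes by edgeR, the values being 0.12 ± 0.22 for Tet1, 0.24 ± 0.21 for Tet2, −0.02 ± 0.28 for Tet3 and 0.32 ± 0.18 for Tdg (adjusted p = 0.549 to 0.990), where 0.74% of the 21626 genes tested were called. The unadjusted p was under 0.05 for 0 of them, and DESeq2 called 0. At E14.5 the null pools held 368 and 164 CPM of Tet1 against 263 and 262 CPM in the wild type. At E15.5 they held 273 and 172 CPM against 66.4 and 100 CPM, without overlap, and at E18.5 the single null pool held 14.1 CPM against 24.1 and 30.8 CPM. Read by time-point, a comparison added after the values were seen, Tet1 was higher in Helq null at E15.5 (1.48 ± 0.30, adjusted p = 0.0150; 0.923% of genes called), and the difference at E15.5 exceeded the mean of those at the other days (1.75 ± 0.34, adjusted p = 0.0364; 0.25% of genes called). Tet1 was not called at the other 5 time-points, where it stood at −0.35, 0.26, −0.13 and −0.05 from E11.5 to E14.5 and at −1.09 ± 0.40 at E18.5 (unadjusted p = 0.0104, adjusted p = 0.927). The E18.5 value had the opposite sign to that at E15.5 and is part of the mean it was set against. The study reported that null germ cells were held back in development between E15.5 and E18.5. Cells were not matched here by developmental state, and null and wild-type animals were bred by different crosses. Genotype, state and breeding thus cannot be told apart in these values.

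Tet3 at E15.5 was 7.96 and 16.54 CPM in Helq null and 36.8 and 18.7 CPM in the wild type, a difference that was not called (−1.09 ± 0.60, adjusted p = 0.472). By cell, 77.7 and 58% of thinned null cells at E15.5 had Tet1 without Tet3, against 31.9 and 50.6% in the wild type. The Wilson 95% intervals of the null pools were 68.2 to 84.9% and 47.5 to 67.7%, so the second overlapped that of wild-type replicate 2. In the null pools 0% (0 of 94 cells, up to 3.19%, Wilson upper bound 3.93%) and 1.14% had Tet3 without Tet1, against 26.4 and 11.2%. At E13.5 the Tet1-only share was 94.8 and 93.4% in Helq null, close to the wild-type pools. Null and wild-type pools had similar depth at E15.5 (307212 and 336422 against 325602 and 261417 UMIs per cell as medians). Across the gonad, no member was called between distal and proximal parts of E13.5 to E16.5 by edgeR, where 3 of 19467 genes were (0.0154%). Of the members, 0 had an unadjusted p under 0.05 by edgeR or DESeq2, and DESeq2 gave an adjusted p to Tet1 alone. By edgeR Tet1 stood at −0.01 and Tet3 at 0.01 on the log2 scale.

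Genes whose course was most like that of each member were ranked by Spearman correlation of mean CPM over 33 time-point and ploidy groups, among 11358 or 11359 genes at 10 CPM or more. For Tet1 these were Slc25a4 (0.976), a mitochondrial ATP and ADP carrier, Dppa5a (0.974), a pluripotency-associated gene, and Usp9x (0.972), a deubiquitinase. For Tet2 they were Mrpl23 (0.954), of the mitochondrial ribosome, Ppp2r1a (0.943), a scaffold subunit of protein phosphatase PP2A, and Ap5z1 (0.931), an adaptor subunit. For Tet3 they were Hdac6 (0.941), a tubulin deacetylase, Plppr3 (0.938) and Man2b1 (0.932), a lysosomal mannosidase, and for Tdg Zfp871 (0.946), Pdzd11 (0.936) and Depdc1a (0.935). The least alike were Spata33 for Tet1 (−0.959), Tmem97 for Tet2 (−0.928), Mkrn1 for Tet3 (−0.874) and Serf1 for Tdg (−0.920). Among the members the values were 0.82 for Tet1 and Tet2, 0.58 for Tet1 and Tdg, 0.30 for Tet2 and Tdg, 0.20 for Tet2 and Tet3, 0.10 for Tet3 and Tdg and −0.15 for Tet1 and Tet3. These correlations are descriptions over groups that share pools, depth and the general course of development.

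The neighbouring steps of the pathway were read from 37 other genes. They were 6 that supply or accompany Tet enzymes, 10 other glycosylases, deaminases and Gadd45 genes, 6 of base excision repair, 5 methyltransferase genes and 10 germline genes known to be silenced by methylation elsewhere. At E8.5-E10.5 against E6.5-E7.5, 3 rose and 10 fell (median −0.21), against 5.51% and 25.7% of all genes, among them 4 of the 5 methyltransferase genes, with the de novo enzyme Dnmt3b at −7.73, the cofactor Dnmt3l at −4.58 and Uhrf1, which brings Dnmt1 to replicating DNA, at −4.16, beside a fall of Sycp3 (−2.51). Scaled by DESeq2 8 rose and 10 fell, by library size 7 rose and 7 fell, and without the E8.5 pool 11 rose and 6 fell, or 7 and 6 by limma on mean single-cell CPM. At E11.5-E13.5, 10 rose and 2 fell (median 0.15), against 4.26% and 3.98% of all genes, with 9 of the 10 germline genes higher, such as Dazl (6.68), Mael (5.13) and Hormad1 (4.83), and Dnmt3l at 0 UMIs in all 6 pools, at least 3.64-fold lower. Dazl, Ddx4, Mael and Sycp3 are also germ marker genes by which cells were split, so their values are not independent of the split. Without them 6 of 33 genes rose and 2 fell at E11.5-E13.5 (median −0.01).

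At E14.5-E16.5, where Tet1 fell and Tet3 rose, 13 of the 37 rose and 9 fell, against 22.3% and 11.6% of all genes (median 0.12, against 0.63 for all genes). Without the genes by which cells were split, 10 of 33 rose and 9 fell (median −0.06). Dnmt3l went from 0 UMIs in 6 pools to a mean of 233 CPM, at least 1987-fold higher, and Stra8, a gene of meiotic entry (5.24), and Taf7l (5.17) rose. Of the partners, Cxxc4, which can bind Tet2, rose (4.41), while its relative Cxxc5 (−2.07) and Idh2, a source of the Tet cofactor 2-oxoglutarate (−2.05), fell. Among methyltransferases 3 rose, Dnmt3a (2.26) included, and the maintenance enzyme Dnmt1 fell (−1.14). None of the 6 base excision repair genes was called, so the genes after Tdg in the pathway were not called with it.

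At the later steps the list moved in parts. At E17.5-PND0, 2 rose and 10 fell (median −0.38; 21.9% and 10.7% of all genes), or 4 and 10 by DESeq2, 3 and 7 by library size, 9 and 8 by limma and 5 and 10 by the bias-adjusted form, with Gadd45a at 1.95, Ogt, a sugar transferase that binds Tet proteins, at −1.64, Gadd45b at −1.45 and Uhrf1 at −1.0. At PND1-PND4, 11 rose and 6 fell (median 0.41; 15.6% and 20.3% of all genes), with Uhrf1 (3.65) and Stra8 (3.06) higher and Dnmt3l (−3.24) lower. At PND5-PND8, 8 rose and 3 fell (median 0.19; 5.4% and 8.23% of all genes), with Gadd45b (2.56), Gadd45g (1.62) and Ogt (1.45) higher and Dnmt3l (−2.46) lower. At PND10-PND14, 2 rose and 1 fell (median −0.11; 9.62% and 2.8% of all genes), or 3 and 4 by DESeq2 and 2 and 3 by library size, Sycp3 (2.12) and Hormad1 (1.55) being the higher and Idh2 (−1.21) the lower. In PND30 4N cells 6 rose and 24 fell against PND5-PND8 (median −2.24; 34.9% and 25.3% of all genes), with Neil2, a glycosylase, at 0 UMIs in both pools, at least 251-fold lower, Cxxc4 at least 54.3-fold and Apobec1 at least 16.2-fold lower, and Stra8 at −8.35. In 1N against 4N cells 4 rose and 7 fell (median 0; 3.6% and 7.98% of all genes), turning to 7 and 5 by DESeq2, with Ung (3.42) higher and Dnmt3b (−3.39) and Dnmt1 (−3.19) lower, while Neil1 was at 0 UMIs in both 1N pools and at or under the floor in both gates.

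Between cell classes the direction of 4 of the germline genes, Dazl, Ddx4, Mael and Sycp3, was set by the split of the cells, so the counts that follow are descriptions. Before birth 19 of 37 were higher and 7 lower than in the Negative gate (median 0.90), against 39.7% and 20.1% of all genes, including all 10 germline genes and Prdm14, a repressor that acts with Tet proteins in germ cells (5.40), Hormad1 (4.99), Sycp1 (4.97) and Tex19.1 (4.85), while 4 of the 6 partner genes were lower. Without those 4 genes 15 of 33 were higher and 7 lower (median 0.35). After birth 23 of all 37 were higher and 7 lower (median 0.88), against 40.2% and 22.7% of all genes, or 19 and 7 of 33 without the same 4, with Dnmt3l (3.24) and Hormad1 (3.11) higher and Idh2 (−3.61) lower. In Helq null against wild type none of the 37 was called by edgeR in its default form, with 4 at an unadjusted p under 0.05, while the bias-adjusted form called 2 and DESeq2 called 1. In distal against proximal parts none was called by edgeR, with 4 at an unadjusted p under 0.05, or by DESeq2, which gave an adjusted p to 13 of the 37.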

How the data were processed

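The deposited table held UMI counts per gene and cell. According to the study and the submitters' processing notes, the authors took barcodes and UMIs with UMI-tools, aligned reads to mm10 with STAR and counted them with featureCounts of Subread. The count values are whole numbers without normalization. The time-point, gate, genotype and replicate of each cell were read from the deposited table of cells, since the labels give only the library. Cells with more than 2000 genes and with 10000 to 1000000 UMIs were kept, and cells over 5% globin UMIs were set aside. A cell was called germ-marker when its germ marker genes summed to at least 20 CPM and to more than its genes of other cells. UMIs were summed per pool of at least 10 cells.

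Pools were compared with edgeR 4.0.16 in R 4.3.3 (TMM scaling, filterByExpr, quasi-likelihood test, Benjamini-Hochberg adjustment over all genes tested, threshold 0.05), with 1 fit for all time-point groups, and with time-point and replicate as a block for gates and for parts of the gonad. The stage fit covered 66 pools. Values are log2 fold changes with SE taken as the change divided by the square root of F. Alternatives used DESeq2 1.42.0, limma 3.58.1 on log2(mean single-cell CPM + 1), library size without TMM, other filters, all cells of the gate, at least 20 cells, the replicate number as a block, and pools left out. edgeR offers a default and a bias-adjusted form of its quasi-likelihood, the analysis plan did not name one, and the default was taken after both had been run and their calls for the members seen; the other form is among the alternatives. Summing the pools of PND14 replicate 2, leaving out the BV gate, periods of the gate comparison, single time-points of Helq null and daily steps were added after the data were seen. Ratios used an exact permutation test with 0.5 added to sums. Scripts were tested on simulated data. Python 3.11.15, numpy 2.4.6, scipy 1.17.1 and pandas 2.3.3 were used for sums.

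The genes named were the 4 members, up to 4 genes of a list of 37 with the largest change past the threshold per comparison, and the 3 most and 1 least alike each member. Cxxc4, Cxxc5, Idh2, Dnmt3a and Dnmt1 at E14.5-E16.5 were named after their values were seen. A gene of the list that the rule would name is not reported here by name. The members and lists were chosen with earlier results of these data known.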

Additional observations from a re-analysis of the deposited data

Results flagged for a closer look

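Of 36 sets of pools in which the highest and lowest value were compared with the rest, 2 held a pool that stood far from the others, and chance alone flags about 1 in 20 such sets. Tet2 in PND1 replicate 2 measured 22.1 CPM, while the other 7 pools of PND1-PND4 lay between 1.09 and 6.78 CPM. Tet2 in PND10 replicate 2 measured 10.2 CPM, while the other 6 pools of PND10-PND14 lay between 1.22 and 4.25 CPM.

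Differences between groups were flagged where the difference itself was tested with edgeR. The gate difference changed between E11.5-E14.5 and E15.5-E18.5 by −3.83 ± 0.37 (SE) for Tet1 (adjusted p = 4.32e-07) and by 4.31 ± 0.41 for Tet3 (adjusted p = 4.53e-07). The Helq null difference of Tet1 at E15.5 exceeded the mean of the other time-points by 1.75 ± 0.34 (adjusted p = 0.0364). These comparisons were chosen after the values had been seen.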

How the results depend on the processing

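Of the 25 calls of single members and ratios, 22 kept their direction and their call under every alternative that did not leave out pools. The 3 exceptions were Tdg at PND5-PND8 (0.65 with all cells of the gate), Tet3 at PND5-PND8 (1.08 with all cells, 1.02 by library size) and Tet3 in PND30 1N against 4N (2.39 by the bias-adjusted quasi-likelihood, 0.88 by limma). All values here are log2 fold changes, and the cause was not tested for any of them.

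Of the 31 values that were not called, 11 kept both their sign and that side of the threshold throughout. DESeq2 called Tdg at E11.5-E13.5 (−0.91), Tet3 at E17.5-PND0 (1.20) and PND1-PND4 (−1.01), Tet1 at E8.5-E10.5 (1.07) and between gates (1.06), and Tet1 in 1N against 4N (2.81). Library size called the first 5 of these too, at −0.93, 1.27, −1.0, 1.04 and 1.12, and the bias-adjusted form at −0.95, 0.99, −0.75, 0.72 and 1.15, with Tet2 at E14.5-E16.5 (0.86) and Tdg after birth (−0.45). limma called Tdg at E11.5-E13.5 (−0.79), Tet2 at E14.5-E16.5 (1.06), Tet3 at E17.5-PND0 (1.28) and PND1-PND4 (−1.09), and Tet1 at E8.5-E10.5 (1.13) and PND10-PND14 (−0.80). All cells of the gate called Tdg (−1.0) and Tet3 (−2.67) at E11.5-E13.5, and Tet1 (2.77) and Tet2 (3.57) in 1N against 4N. Without the filter on cells, Tdg was called at E11.5-E13.5 (−0.90) and E17.5-PND0 (−0.61), and Tet1 in 1N against 4N (2.61). Signs turned for values near 0. Tet3 at PND10-PND14 went to −0.085 by DESeq2, −0.040 with all cells, −0.068 by library size, −0.023 by limma, −0.047 without the filter on cells and −0.048 without that on low counts. Tet2 at E11.5-E13.5 went to 0.16 with all cells and 0.10 by limma. Tdg went to 0.17 at E17.5-PND0 and −0.084 at PND1-PND4 by limma, and to 0.10 in 1N against 4N by DESeq2. Between parts of the gonad, Tet3 went to −0.041 by library size. With the pools of PND14 replicate 2 summed Tet2 at PND10-PND14 went to 0.058, and without the BV gate Tet3 in Helq null went to 0.10. Neither of these changed a call of a member, and both were chosen after seeing the data.

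Samples of the same replicate number did not as a rule deviate together. The median correlation of their deviations was 0.013 over 406 pairs of wild-type groups (−0.50 to 0.76), 67 of them over 0.1. None of the 3 pairs of genotypes passed 0.1 (−0.45 to −0.25). By the study's sample list, DNA-content gates of a PND14 or PND30 replicate share a gonad or testis, so more than a number is shared there. With the replicate block, Tdg at E11.5-E13.5 was called (−1.0), no other call of a member changed, and 9815 genes were called at E14.5-E16.5. Without the block between parts of the gonad, Tet1 stood at 0.015 and Tet3 at −0.011.

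Leaving out replicate 1, replicate 2 or 1 pool moved calls as follows, from the lowest to the highest value. Single pools were left out only from E11.5 to PND0 and at E8.5 and PND2, with the trended dispersions of the full fit, and the same was not run for other pools or the PND30 gates. At E8.5-E10.5 Tdg ranged from −0.98 to −0.83 and Tet1 from 0.67 to 1.33. At E11.5-E13.5 Tdg ranged from −1.02 to −0.72, called without E8.5 replicate 2, E12.5 replicate 1 or 2, or E13.5 replicate 2, Tet2 from −0.60 to 0.27 and Tet3 from −1.90 to −0.51. At E14.5-E16.5 Tdg ranged from −1.15 to −0.75, the ratio of Tet1 to Tet2 from −3.64 to −2.65 and that of Tet1 to Tet3 from −6.47 to −6.43 (exact permutation p = 0.1, the smallest that 3 pools against 3 allow). Tdg ranged from −0.67 to −0.35 at E17.5-PND0, called without PND0 replicate 1, and from 0.38 to 0.62 at PND1-PND4, called without PND0 replicate 1 or PND2 replicate 1. Tet2 ranged from −2.67 to −1.81 at PND1-PND4. At PND5-PND8 Tdg ranged from 0.69 to 0.98, Tet1 from −2.07 to −1.77, Tet2 from −0.88 to 0.62 and Tet3 from 1.07 to 1.39. At PND10-PND14 Tet1 ranged from −1.83, called without replicate 1, to 0.31, and Tet3 from −0.32 to 0.33. In Helq null Tet1 ranged from −0.15 to 0.29 and Tet3 from −0.39 to 0.57, between parts of the gonad Tet1 from −0.30 to 0.25 and Tet3 from −0.47 to 0.38, and between gates Tet2 from −1.32 to −0.57. In 1N against 4N Tet1 ranged from −1.61 to 3.92 and Tet3 from 2.03 to 3.66, with 1 pool left on a side.

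Counts of all genes called moved most without a replicate number, where most time-points and DNA-content gates keep 1 pool, E6.5, E7.5 and E10.5 keep 2 or 3, and E8.5 keeps 0 without replicate 2. They fell from 8686 to 1961 and 2008 at E8.5-E10.5, from 2292 to as few as 75 at E11.5-E13.5, from 9424 to 2830 and 3046 at E14.5-E16.5, from 9087 to 364 and 1524 at E17.5-PND0, from 9991 to 1475 and 3362 at PND1-PND4, from 3790 to 1 and 22 at PND5-PND8, from 3453 to 7 and 1166 at PND10-PND14, from 13844 to 7218 and 8568 between gates, from 3220 to 7 and 553 in 1N against 4N, and from 16739 to 10527 and 10574 in 4N against PND5-PND8. At PND5-PND8 the list of 37 then had 0 calls. DESeq2 called 4294 at E11.5-E13.5, 5237 at PND10-PND14, 5258 in 1N against 4N and 557 in Helq null, all cells 3475 at E11.5-E13.5, and limma 6206 at PND5-PND8 and 8946 in 1N against 4N. In Helq null the 160 genes became 632 by the bias-adjusted form, 306 without the filter on low counts and 17 without replicate 1. The 3 genes between parts of the gonad became 0 to 7. The median of all genes moved with the scaling, from −0.79 to −0.56 by library size and −0.22 by DESeq2 at E8.5-E10.5, and from −0.28 to −0.54 and −0.58 at PND1-PND4. In the PND30 pools levels rested on a few molecules. The gate difference by period and its change, the daily steps and the Helq null differences by time-point were fitted in 1 setting, with no alternative.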
